A study of Homo sapiens with 12 samples.

Results

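Polysome-associated RNA was set against total RNA within the PRRC2B knockdown line, gene by gene, to describe which classes of transcripts sat on polysomes and how far the ratios were spread. The 6 libraries used were chosen by label out of the 12 of the series. They were 3 polysome and 3 total RNA libraries of HEK293T cells, a line derived from human embryonic kidney, that carried a Dox-inducible shRNA against PRRC2B (shPRRC2B) and had received Dox for 36 h. The other 6 libraries came from the line with a non-targeting shRNA (shCtrl), which had the same Dox treatment, the same puromycin selection and the same pair of fractions, and served for comparison, though the scaling, the filter and the estimate of the spread were shared by all 12. Each line was 1 stable clone, so the effect of an shRNA and that of its clone cannot be told apart. Total RNA came from whole cells and polysome RNA from the combined heavy fractions of a sucrose gradient, loaded with cytoplasmic lysate of cycloheximide-treated cells after the nuclei had been pelleted, so the fractions also differ in nuclear RNA. RNA was enriched for poly(A) tails before every library.

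As background, an mRNA that is being translated carries several ribosomes at once, and such polysomes sink deeper into a sucrose gradient than free mRNA or an mRNA with a single ribosome. Cycloheximide holds the elongating ribosomes in place during lysis. The number of ribosomes on an mRNA depends on how often translation starts, how fast ribosomes move and how long the open reading frame is. Nuclear RNA and mRNA in repressed complexes stay in total RNA but are largely missing from heavy fractions. PRRC2B is a large RNA-binding protein that works with translation initiation factors.

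The shPRRC2B total RNA libraries held 15691850 to 20837542 counts and the shPRRC2B polysome libraries 14774418 to 15794787, with shCtrl libraries between 9855734 and 19489591. Pearson correlations of log2 CPM (counts scaled to library size) between replicates ran from 0.980 to 0.985 in polysome RNA and from 0.993 to 0.994 in total RNA of shPRRC2B cells. Of 10 markers chosen for this cell line, 9 were at 1 CPM or more in all 3 shPRRC2B total RNA libraries and SOX11 was at 0 to 0.191 CPM. Of 10 markers of other cell types, 8 stayed under 1 CPM, while COL1A1 was at 41.5 to 47.0 CPM and GFAP at 1.34 to 1.78 CPM. In bulk RNA, a difference in the share of cells and a difference in RNA per cell cannot be told apart.

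PRRC2B itself (ENSG00000288701.1, chr9:131373636-131500197, plus strand, GRCh38) was the first gene examined, since it is the target of the shRNA. Its level in shPRRC2B total RNA was 97.9, 103 and 100.5 CPM, against 281 ± 28.7 CPM (SD, n = 3) in shCtrl total RNA, and in shPRRC2B polysome RNA it was 9.03, 6.50 and 5.14 CPM. The polysome values lay below all total values, and the remaining PRRC2B mRNA was 14.5-fold lower in polysome RNA, a log2 ratio of -3.86 (standard error 0.20, edgeR adjusted p = 4.02e-12). The ratio was -4.02 in shCtrl cells, and the difference between the lines, 0.16, did not pass the test (edgeR adjusted p = 0.694). That difference was -0.15 to 0.30 when single libraries were left out. With the trend on transcript length removed it was 0.85 and passed (edgeR adjusted p = 0.0186).

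Transcripts were distributed over a wide range between the fractions. A gene's log2 ratio is the fitted log2 of its level in polysome RNA over that in total RNA, after the libraries were put on 1 scale by the TMM method, and a gene is called polysome-enriched above a log2 ratio of 1 and polysome-depleted below -1, where the adjusted p is under 0.05. Of 18166 genes tested, 5741 (31.6%) were enriched and 6662 (36.7%) were depleted, which left 5763 (31.7%) without a call. As groups, the enriched genes took 21.9% of the tested counts in total RNA and 78.3% in polysome RNA, whereas the depleted genes took 48.8% and 4.98%. The median ratio was -0.22 and the quartiles were -1.96 and 1.57, an 11.5-fold step between them, and the 5th and 95th percentiles lay 322-fold apart. Among the 10065 genes that averaged 10 CPM or more, 3184 (31.6%) were enriched and 3869 (38.4%) depleted, and in 3180 and 3868 of them the 3 polysome values did not overlap the 3 total values.

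The point at which a ratio counts as 0 was set by the scaling and not by a measured amount of RNA. TMM factors were 0.681 to 0.737 in the shPRRC2B polysome libraries and 1.34 to 1.39 in the total RNA libraries. With library totals in place of TMM, all ratios moved by -0.94, the median became -1.16, and 27.7% of the calls were enriched instead of 46.3%. Classes of genes are therefore described by their place relative to each other and to the median of all genes.

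**Figure D1:**
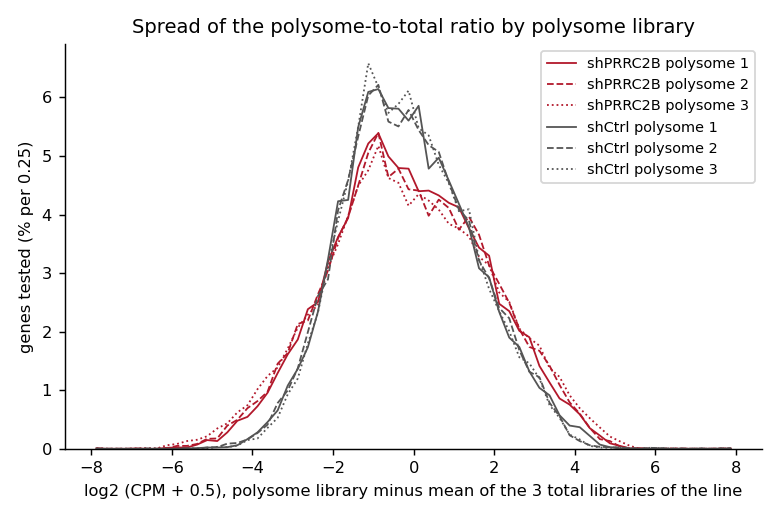
Distribution across genes of the log2 ratio of polysome to total RNA for each polysome library against the mean of the 3 total RNA libraries of its line, on the scale log2(CPM + 0.5), with the percentage of genes tested per bin on the y axis and 1 line per library. The 3 shPRRC2B curves are wider than the 3 shCtrl curves, with interquartile ranges of 2.67 to 2.88 against 2.21 to 2.28.

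The spread of the ratios was wider in the knockdown line. When each polysome library was set against the mean log2(CPM + 0.5) of its own line's total RNA, the interquartile range across genes was 2.67, 2.80 and 2.88 in the 3 shPRRC2B libraries and 2.26, 2.28 and 2.21 in the 3 shCtrl libraries. The means were 2.78 ± 0.11 and 2.25 ± 0.036 (SD, n = 3 each), and the groups did not overlap. The difference of 0.54 gave p = 0.1 in an exact two-sided permutation test, the smallest value that 3 against 3 can give. The 3 values of a line share 1 mean of total RNA, so they are not independent. The test, here and in the next comparison, leaves out the spread between total RNA libraries. Among the 10051 genes that averaged 10 CPM or more over the 12 libraries the ranges were 3.32 ± 0.12 and 2.60 ± 0.047 (SD, n = 3 each), again without overlap (exact permutation p = 0.1).

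The lower and the upper quartile both lay further out in the knockdown line. The lower quartile was -1.43, -1.48 and -1.54 in the 3 shPRRC2B libraries and -1.27, -1.28 and -1.24 in the 3 shCtrl libraries, and the upper quartile was 1.23, 1.33 and 1.35 against 0.99, 0.99 and 0.97. The groups did not overlap at either quartile, which describes the same spread as above and was not tested apart. In a test of the difference itself (edgeR, with a log2 difference of more than 0.5 in either direction and an adjusted p under 0.05), the ratio was higher in shPRRC2B cells for 1935 genes (10.7%) and lower for 2981 (16.4%). The order of genes was largely shared, with a Spearman correlation of the ratios of the 2 lines of 0.91 across the 18166 genes, which are not independent replicates. The lines share no library, but their libraries went through the same preparation and scaling. Genes enriched in both lines numbered 4378, which is 76.3% of those enriched in shPRRC2B cells and 90.7% of those enriched in shCtrl cells. For depletion the number was 5261, or 79.0% and 87.6%. A gene enriched in shPRRC2B and depleted in shCtrl cells occurred 23 times and the reverse 1 time.

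Gene classes were ranked by the median log2 ratio of their tested members. For 34 classes the medians in shPRRC2B cells ran from 3.90 for the Sm and LSm proteins to -4.05 for the large chromatin regulators, a span of 7.95. In shCtrl cells the span was 8.21 and the order was similar, with a Spearman correlation of 0.96 over the 34 class medians, which share members' lengths and libraries. Neighbours in the order often did not keep their order between libraries. For each of the 33 neighbouring pairs the difference of the medians was taken in all 9 pairings of a polysome with a total RNA library. This used log2(CPM + 0.5), which pulls low values toward 0, and not the fitted ratio of the ranking. The difference kept the sign of the ranking in all 9 for 11 pairs only. It was opposite in all 9 for histones above oxidative phosphorylation genes and for ribosomal protein pseudogenes above snoRNA host RNAs. Among the steps that held in all 9 were those from cytosolic ribosomal proteins down to ribosomal protein pseudogenes, from mitochondrial ribosomal proteins to LINC-named RNAs, from aminoacyl-tRNA synthetases to ubiquitin-specific proteases and from collagens, laminins and integrins to large chromatin regulators. Steps down to a class of low counts are widened on this scale. That from ribosomal proteins to their pseudogenes was 0.59 in the fitted medians and 1.23 to 1.69 in the 9 pairings.

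**Figure D2:**
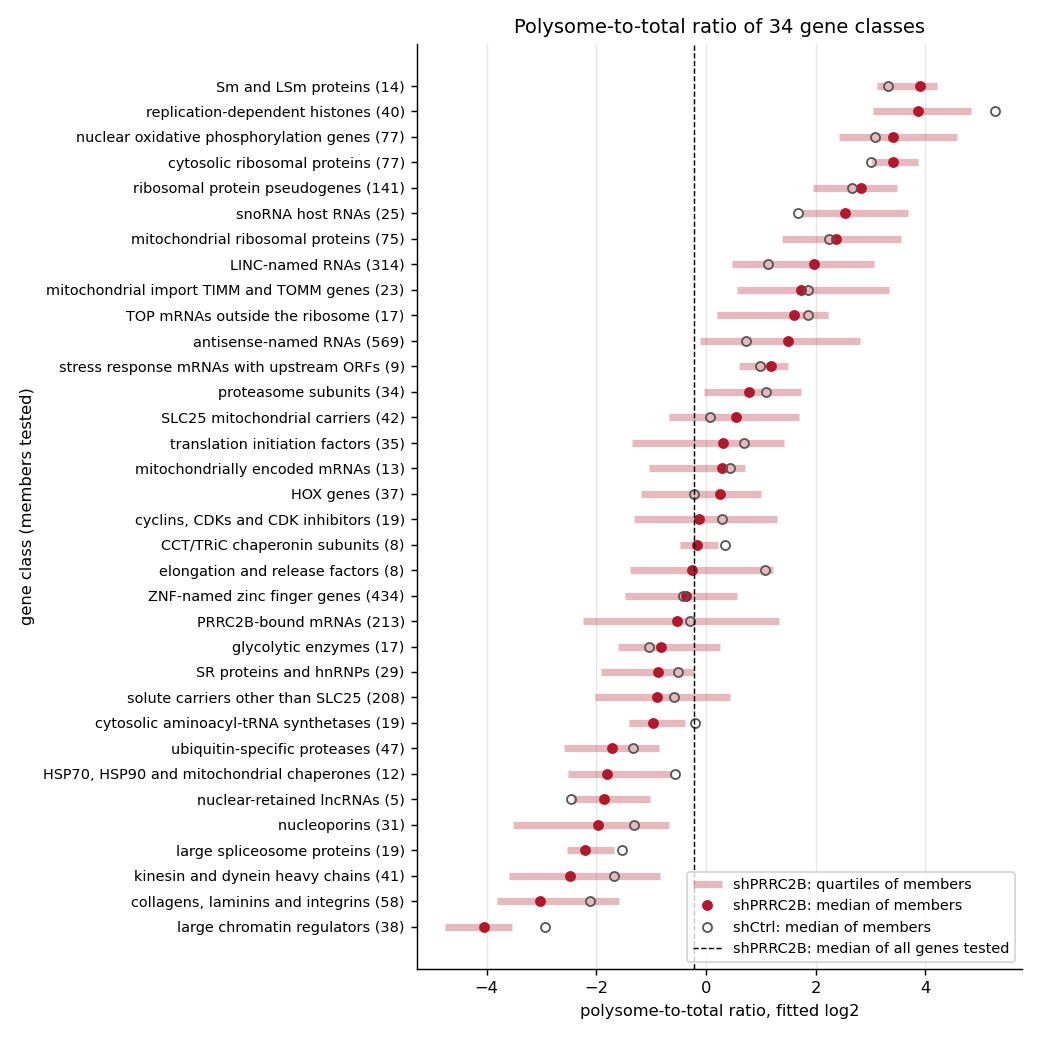
Median log2 ratio of polysome to total RNA for the 34 gene classes in shPRRC2B cells, ordered from highest to lowest, as filled points with bars for the quartiles of members, the shCtrl medians as open points and the median of all genes as a dashed line. The x axis is the fitted log2 ratio, and the classes run from 3.90 (Sm and LSm proteins) to -4.05 (large chromatin regulators).

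The cytosolic ribosomal proteins, the building blocks of the ribosome, were enriched almost without exception. Of 79 listed, 77 were tested and 76 were enriched, none depleted, against 31.6% of all genes. Their median was 3.40 (quartiles 3.01 and 3.86), and 3.29, 3.46 and 3.43 in the 3 polysome libraries. Together they made up 4.90 ± 0.092% of all counts in total RNA and 24.2 ± 1.75% in polysome RNA (SD, n = 3 each). Shares of single classes are of all counts of a library, tested or not. The highest member was RPS21 of the small subunit (chr20:62387103-62388520), at 159, 152 and 162 CPM in total RNA and 4725, 3884 and 5251 CPM in polysome RNA. Its groups were far apart, a log2 ratio of 4.87 (standard error 0.20, edgeR adjusted p = 2.53e-13). RPL39, one of the smallest proteins of the large subunit, had 84.3, 80.7 and 76.9 CPM in total and 1867, 1529.7 and 1763 CPM in polysome RNA, a ratio of 4.41. RPL4, a large protein of the same subunit, rose less, from 2015, 2108 and 2059 to 4143, 8236 and 7545 CPM (log2 ratio 1.69, edgeR adjusted p = 5.35e-07). RPL36A was the member without a call. Its 7.19, 7.51 and 10.1 CPM in total RNA overlapped its 7.48, 7.26 and 6.37 CPM in polysome RNA, and its log2 ratio of -0.23 was within the error (standard error 0.20, edgeR adjusted p = 0.289). With library totals it became depleted (-1.18, edgeR adjusted p = 4.9e-05), as it did with the length trend removed (-2.32). RPL36A overlaps a readthrough gene with HNRNPH2, and how read pairs were split between them is uncertain.

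Many of these mRNAs begin with a terminal oligopyrimidine (TOP) tract, a C followed by a run of pyrimidines that couples their translation to mTOR signalling. The first transcript starts given by RefSeq are shown here for genes with and without such a tract, to place the sequence beside the ratio. The ribosomal proteins shown all have it, while RPL4 (ratio 1.69) and RPL3 (ratio 2.10), not shown, lack it at this start. Each window of 30 bases on GRCh38.p14 runs 5′ to 3′ from 15 bases before the start, and capitals mark the pyrimidine run where the transcript begins with C and at least 4 further pyrimidines.
RPS21, chr20:62387088-62387117, plus strand, ratio 4.87: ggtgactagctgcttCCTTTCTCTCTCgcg
RPL39, chrX:119791616-119791645, minus strand, ratio 4.41: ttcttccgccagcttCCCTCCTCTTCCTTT
RPL36A, chrX:101390996-101391025, plus strand, ratio -0.23: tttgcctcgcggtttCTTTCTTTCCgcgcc
EEF1A1, chr6:73521018-73521047, minus strand, ratio 1.75: gtcgccgtgaacgttCTTTTTCgcaacggg
EIF4B, chr12:53006441-53006470, plus strand, ratio -1.52: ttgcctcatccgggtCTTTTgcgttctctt
SNRPG, chr2:70293444-70293473, minus strand, ratio 4.80: tcccgcgcatgagacgtgaagcccgcgcag
COX14, chr12:50112221-50112250, plus strand, ratio 5.21: ggaagttgcgtagacagtggcctcgagacc
KMT2D, chr12:49060780-49060809, minus strand, ratio -7.00: gggcgggatccctccgccgctccgctccaa
The run occurred with ratios from -1.52 to 4.87 in these examples, and without it COX14 stood above RPS21 and SNRPG just below.

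Counted over all matched genes, the run was most frequent among ribosomal proteins and other TOP mRNAs. It was present in 42 of 62 ribosomal proteins matched to a RefSeq start (67.7%), in 10 of 12 TOP mRNAs outside the ribosome (83.3%) and in 4.07% of all 35116 RefSeq promoters. The TOP mRNAs were listed as a class named for this tract, so a high share among them follows from the list. Elongation and release factors (2 of 7), snoRNA host RNAs (6 of 22, 27.3%) and translation initiation factors (7 of 29, 24.1%) came next. Among the nuclear genes of oxidative phosphorylation it was present in 8 of 63 (12.7%), among the Sm and LSm proteins in 1 of 11 and among histones in 0 of 36. Of matched genes tested, 6.46% of the enriched and 4.30% of the depleted ones had it, against 5.09% of all. Among genes with a CDS of 75 to 774 nt, the median ratio was 2.65 for 147 genes with the run and 2.11 for 2069 without, but 2.09 for the 109 with the run that do not encode ribosomal proteins. Among genes with a CDS of 2592 nt or more it was -2.59 with and -2.45 without. A match says only which letters stand at 1 annotated start, which need not be the start used in these cells.

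The other mRNAs of the translation machinery lay on both sides of 0. Among 35 initiation factors, 12 were enriched (34.3%) and 11 depleted (31.4%), shares close to the 31.6% and 36.7% of all genes, with a median of 0.31. EIF1, the small factor that guards start codon selection, went from 260.3, 265 and 251 CPM in total RNA to 3068, 2759 and 4482 CPM in polysome RNA (log2 ratio 3.73). EIF3A, the largest subunit of the eIF3 scaffold, went the other way, from 476, 486 and 456 to 18.8, 21.5 and 17 CPM (-4.63). All 3 polysome values lay above the total values for EIF1 and below them for EIF3A. EIF4G2, a relative of eIF4G that supports noncanonical initiation, had 885, 884 and 809.9 and 963, 681 and 519 CPM, groups that overlapped, and its ratio of -0.25 did not pass the test (edgeR adjusted p = 0.197). Of 8 elongation and release factors, 3 were enriched and 2 depleted, from 2.99 for EEF1B2, a subunit of the exchange factor of elongation factor 1, to -2.27 for the release factor GSPT1. With the length trend removed both lost the call, at 0.89 and -0.37. The 17 TOP mRNAs outside the ribosome had a median of 1.60, with 9 enriched and 2 depleted. PABPC1, the cytoplasmic poly(A)-binding protein, was lowest among them, at 819, 852 and 828 CPM in total and 138, 127 and 91.7 CPM in polysome RNA (-2.81, edgeR adjusted p = 1.25e-08). None of the 19 aminoacyl-tRNA synthetases, which charge tRNAs, was enriched and 7 were depleted (median -0.96, from 0.47 for SARS1 to -2.89 for LARS1).

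Transcripts for mitochondria were high when encoded in the nucleus. The 77 tested genes of oxidative phosphorylation, the subunits and assembly factors of the respiratory chain and ATP synthase, had a median of 3.42, with 66 enriched and 2 depleted. They rose from 0.818 ± 0.0084% of all counts in total RNA to 4.54 ± 0.20% in polysome RNA (SD, n = 3 each). UQCR10, a small subunit of complex III, was the highest, at 31.2, 32.6 and 27.7 and 1018, 1016 and 1245 CPM (5.16, edgeR adjusted p = 1.75e-13). SDHA, the catalytic subunit of complex II, was the lowest, at 16.1, 16.1 and 17.7 and 5.59, 5.64 and 7.99 CPM (-1.38, edgeR adjusted p = 1.13e-06). The mitochondrial ribosomal proteins had a median of 2.37 (75 tested, 63 enriched, 2 depleted), from 4.85 for MRPL33 to -1.37 for MRPL30 (-0.40 and no call with the length trend removed). The TIMM and TOMM genes of protein import had 1.72 (15 of 23 enriched, 2 depleted), with TIMM8B at 4.81 and the receptor gene TOMM70 at -2.07. The SLC25 carriers of the inner membrane had a median of 0.55, beside -0.22 for all genes. Of 42 tested, 14 were enriched (33.3%, beside 31.6% of all genes) and 7 depleted (16.7%, beside 36.7%).

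The 13 mRNAs encoded in mitochondrial DNA, which are translated inside the organelle by its own ribosomes, had a median of 0.28, with 1 enriched and 4 depleted. MT-CO3 was the highest, at 4065, 4126 and 3783 CPM in total RNA and 11632, 6693 and 6336 CPM in polysome RNA (1.04, edgeR adjusted p = 0.000898), a ratio that was 0.11 with library totals, 0.63 without polysome replicate 1, 0.99 without total replicate 3 and -1.04 with the length trend removed. MT-ND4L was the lowest, at 746, 805 and 834 and 252, 182 and 129 CPM (-2.08). Polysome replicate 1 stood above the other polysome libraries for this class, with a class median of 0.73 against -0.03 and -0.01. Their share of all counts was 5.02 ± 0.165% in total RNA and 3.46 ± 1.55% in polysome RNA (SD, n = 3 each), a spread that covers the difference.

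Within RNA processing the small and the large proteins stood at opposite ends. The Sm and LSm proteins, which form rings on the small nuclear RNAs and on mRNA tails, were the highest class, with 13 of 14 enriched and SNRPD3 depleted. SNRPG had 55.4, 50.3 and 49.6 CPM in total RNA and 1465, 1300.1 and 1557 CPM in polysome RNA (4.80). SNRPD3 had 57.4, 52.8 and 52.4 and 18.8, 13.8 and 10.2 CPM (-1.92, edgeR adjusted p = 1.29e-08), so 2 subunits of the same ring differed in direction without overlap of their groups. The large spliceosome proteins had a median of -2.21, with 17 of 19 depleted and none enriched, down to -4.63 for the helicase SNRNP200. SR proteins and hnRNPs, which guide splice site choice, had a median of -0.88 (1 enriched, 13 of 29 depleted), from 2.65 for SRSF9, which lost its call at 0.62 with the length trend removed, to -4.12 for HNRNPU.

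The nuclear classes were also split. Replication-dependent histones had a median of 3.87 over the 40 of 66 that passed the filter, with 37 enriched and none depleted. Their mRNAs lack a poly(A) tail and were at few counts here, 0.00702% of all counts in total RNA and 0.0385% in polysome RNA. Their sequences are near-identical, so the counts of single histone genes are uncertain. On the log2(CPM + 0.5) scale, which pulls low values toward 0, their median was 2.69, 2.63 and 1.73 in the 3 polysome libraries and fell below that of the oxidative phosphorylation genes in all 9 pairings. H2BC6, the lowest of them and without a call, became depleted with the length trend removed (-2.78), and when polysome replicate 1 was left out (-5.64). A gene could pass the filter through polysome RNA alone, and such a gene is bound to look enriched. Of the 40 histones, 35 had at least 1 CPM in polysome RNA and 9 in total RNA. Their place in the order and their share enriched are therefore partly set by the filter. The 9 histones with at least 1 CPM in total RNA had a median of 3.26. At the other end, all 38 large chromatin regulators, the remodelers, acetyltransferases and methyltransferases that modify nucleosomes, were depleted, against 36.7% of all genes. They took 0.807 ± 0.0029% of all counts in total RNA and 0.0261 ± 0.0047% in polysome RNA (SD, n = 3 each). The difference test put 33 of 38 lower in shPRRC2B than in shCtrl cells, against 16.4% of all genes. CREBBP, a histone acetyltransferase, fell from 149, 147 and 152 CPM in total RNA to 5.50, 2.48 and 3.71 CPM in polysome RNA (-5.24, edgeR adjusted p = 1.79e-13). CHD9, a remodeler, was the least depleted member at 67.1, 73.4 and 68.7 and 16, 12.9 and 16 CPM (-2.22, edgeR adjusted p = 3.38e-11), and its ratio was 0.29 with the length trend removed. Nucleoporins, which build the nuclear pore, had a median of -1.97, with 21 of 31 depleted and 3 enriched. SEC13, which also serves in vesicle coats, had a ratio of 1.13 (0.18 with library totals and -0.73 with the length trend removed), and TPR, of the basket, one of -4.81. The 434 ZNF-named zinc finger genes were near the median of all genes, -0.22, at -0.36 (67 enriched, 151 depleted). The HOX genes stood at 0.26 (10 enriched and 9 depleted of 37).

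Protein handling and metabolism lay in the middle and lower part of the order. Proteasome subunits had a median of 0.79, with 14 of 34 enriched (41.2%, beside 31.6% of all genes) and 5 depleted (14.7%, beside 36.7%). PSMD9 was the highest at 2.96. PSMA2 was the lowest at -3.46, from 14, 27 and 14 counts in total RNA and 1, 1 and 0 in polysome RNA, and it lost its call with limma (-0.71). None of the 8 subunits of the CCT chaperonin, the ring that folds actin and tubulin, was called in either direction by edgeR, CCT4 and CCT2 passing at an adjusted p of 2.75e-06 and 4.58e-06 but not the minimum ratio, and the ratios stayed between -0.96 for CCT2 and 0.97 for CCT4. CCT2 became depleted with library totals (-1.90), with every gene of at least 1 count (-1.14), with the length trend removed (-2.15) and without polysome replicate 1 (-1.17) or total replicate 3 (-1.02). HSP70, HSP90 and mitochondrial chaperones had a median of -1.81, with 8 of 12 depleted and 2 enriched. HSPE1, the small lid of the mitochondrial chaperonin, had 27.3, 23.5 and 21 CPM in total RNA and 454, 305 and 373 CPM in polysome RNA (3.98), while HSP90B1 of the endoplasmic reticulum had 441, 467 and 489 and 58, 48 and 65 CPM (-3.03). Ubiquitin-specific proteases had a median of -1.71 (32 of 47 depleted, 3 enriched). Glycolytic enzymes had -0.82, with 8 of 17 depleted and TPI1 the 1 enriched member at 1.08 (0.14 with library totals, 0.98 and 0.96 without polysome replicate 1 or 2 and -0.78 with the length trend removed), and solute carriers outside SLC25 had -0.90 (30 enriched, 96 depleted of 208). Kinesin and dynein heavy chains, the microtubule motors, had -2.48, with 29 of 41 depleted and 3 enriched, from 3.49 for KIF9 to -5.82 for DYNC1H1, the cytoplasmic dynein heavy chain. Collagens, laminins and integrins of the matrix had -3.03, with 46 of 58 depleted and 5 enriched.

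Cell cycle and stress mRNAs had members far from 0 on both sides. Of 19 cyclins, CDKs and CDK inhibitors, 6 were enriched (31.6%) and 7 depleted (36.8%), beside 31.6% and 36.7% of all genes, with a median of -0.12. CDKN2D, an inhibitor of CDK4 and CDK6, had 3.31, 3.72 and 2.75 CPM in total RNA and 34.8, 45.1 and 42.1 CPM in polysome RNA (3.63). CDK6 had 148, 149 and 156 and 9.11, 8.31 and 7.33 CPM (-4.19, edgeR adjusted p = 2.1e-13). Both were without overlap between the fractions, in opposite directions. Of 9 stress response mRNAs with upstream open reading frames, 6 were enriched and 2 depleted. ATF4, the transcription factor of the integrated stress response, had 317, 332 and 344 and 1785, 3553 and 3857 CPM (3.21), DDIT3, its target, had 2.94, 3.79 and 3.89 and 42.8, 58.2 and 65.5 CPM (3.96), and PPP1R15B, which directs the dephosphorylation of eIF2, had 88.9, 88.8 and 89.4 and 18.5, 24.8 and 15.2 CPM (-2.19, and -0.85 with no call once the length trend was removed). The 213 tested mRNAs that the study lists as bound by PRRC2B in PAR-CLIP, a crosslinking assay, had a median of -0.52, 59 enriched and 89 depleted, which is 27.7% and 41.8% beside 31.6% and 36.7% of all genes. In shCtrl cells the median was -0.29. The difference test put 74 (34.7%) lower and 17 (7.98%) higher in shPRRC2B cells, beside 16.4% and 10.7% of all genes. The bound mRNAs had a median level of 100.3 CPM in shPRRC2B total RNA. Among protein-coding genes at 65.6 to 108.6 CPM there, a group whose range holds this median, 42.2% were lower and 6.10% higher. The bound mRNAs were not matched to other genes by level. The part of binding was not tested.

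Long noncoding RNAs (lncRNAs) had a higher median than protein-coding genes. The 1327 lncRNAs tested had a median of 1.60, with 780 enriched (58.8%) and 200 depleted (15.1%), while the 13609 protein-coding genes had -0.45. Many lncRNAs were at low counts, and the choice of genes moved the value. For the 716 lncRNAs with at least 1 CPM in total RNA the median was 1.16 (all genes so selected -0.47), and for the 1007 with at least 1 CPM in polysome RNA it was 2.12 (all genes 0.21). LINC-named RNAs had 1.98 (314 of 2134 tested), and 1.14 and 2.46 under the same selections. Antisense-named RNAs had 1.49 (569 of 1527 tested), and 1.20 and 2.03. The counting was not stated to use strand, so reads of an antisense RNA and of its partner gene cannot be told apart. The snoRNA host RNAs, whose introns carry small nucleolar RNAs and whose spliced product is often TOP-like, had a median of 2.53, with 19 of 25 enriched and 2 depleted. They ran from 4.57 for SNHG9 to -3.38 for SNHG32. The latter averaged only 0.389 CPM in total and 0.0317 CPM in polysome RNA, and it lost its call with limma (-0.42). ZFAS1 went from 12.4, 13.4 and 13.7 CPM in total RNA to 156, 156 and 201 CPM in polysome RNA (3.70), and DANCR from 55.7, 59.4 and 67.3 to 805, 723 and 844 CPM (3.70). Of 5 lncRNAs known to stay in the nucleus or at chromatin, 3 were depleted and 1 enriched, at 1.89 (0.95 and no call with library totals). The depleted ones included KCNQ1OT1 at 11.4, 10.1 and 10.4 and 0.774, 0.764 and 0.951 CPM (-3.67, edgeR adjusted p = 1.96e-09). Pseudogenes of ribosomal proteins had a median of 2.82 (141 of 1292 tested, 114 enriched, 14 depleted), and 2.98 for the 56 with at least 1 CPM in total RNA. Their near-identical sequences leave these counts uncertain.

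Of the properties examined, length went with the ratio most closely. Over the 13609 protein-coding genes, split into 10 equal groups by the length of the coding sequence (CDS) of the canonical transcript, the median ratio fell at every step. It was 2.91 for a CDS of 75 to 552 nt, where 79.5% of genes were enriched, and -3.01 for a CDS of 3573 nt or more, where 88.1% were depleted. The step from the first to the last group was 5.92, against 4.62 in shCtrl cells, where the medians were 2.42 and -2.21. Spearman correlations with the ratio across genes were -0.65 for CDS length and -0.67 for transcript length, -0.46 for the number of exons, -0.41 for the 3′ UTR, -0.25 for the 5′ UTR and 0.11 for GC content. These describe genes that share libraries and are not independent. In the 3 polysome libraries the correlation with CDS length was -0.67, -0.66 and -0.64.

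**Figure D3:**
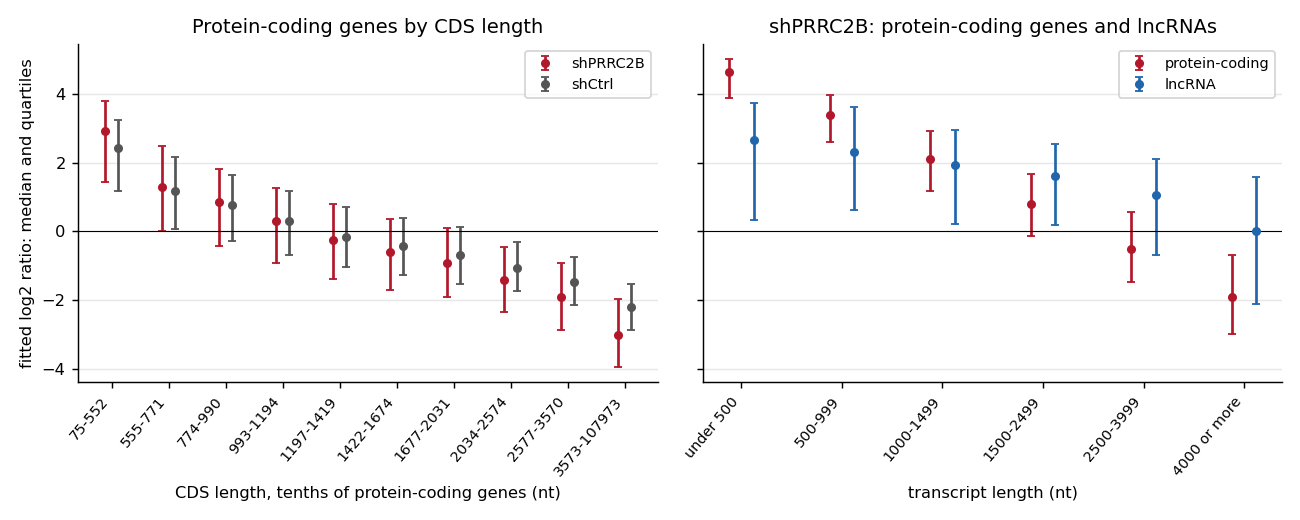
Left, median and quartiles of the fitted log2 ratio of polysome to total RNA in 10 equal groups of the protein-coding genes by CDS length (nt), in shPRRC2B and shCtrl cells. Right, the same for protein-coding genes and lncRNAs in shPRRC2B cells by transcript length (nt). On the left the shPRRC2B medians fall from 2.91 to -3.01 and the shCtrl medians from 2.42 to -2.21, and on the right lncRNAs fall from 2.66 to 0.01.

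CDS and 3′ UTR length each went with a lower ratio when the other was held within 1 of 4 equal groups of genes. Genes with a CDS of at most 888 nt had a median of 3.06 with a 3′ UTR of at most 522 nt (1149 genes) and of 0.21 with one of 2770 nt or more (639 genes). Genes with a CDS of 2271 nt or more had -1.53 with the shortest 3′ UTRs (657 genes) and -2.77 with the longest (984 genes). CDK6, at -4.19, has a CDS of 978 nt and a 3′ UTR of 10222 nt, and CCND2, at -3.15, has 867 and 5347 nt, examples chosen after their values were seen. SNRPD3 and MRPL30, the lowest members of classes that otherwise stood high, had a CDS of 378 and 483 nt and 3′ UTRs of 2997 and 3859 nt. These lengths are of 1 annotated transcript a gene, which need not be the form expressed here. The same trend ran inside the classes, with a negative correlation of ratio and CDS length in all 26 classes that had at least 10 members with a CDS, from -0.85 in the glycolytic enzymes to -0.05 in the mitochondrially encoded mRNAs. It was -0.80 within the ribosomal proteins, -0.83 within oxidative phosphorylation and -0.85 within the nucleoporins.

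**Figure D4:**
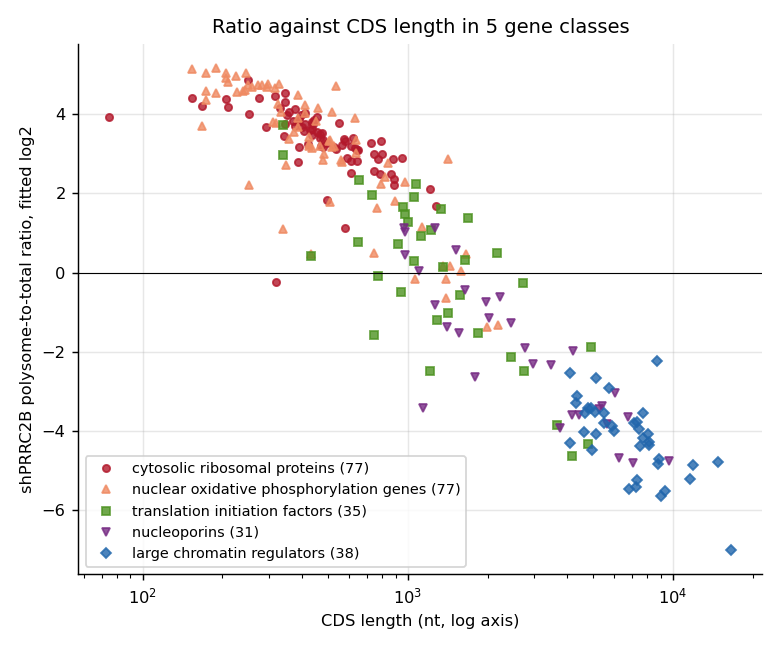
Fitted log2 ratio of polysome to total RNA in shPRRC2B cells against CDS length (nt, log axis) for the members of 5 gene classes, 1 point per gene. Ribosomal proteins and oxidative phosphorylation genes lie at the upper left with medians of 3.40 and 3.42, initiation factors and nucleoporins run downwards, and the chromatin regulators lie at the lower right with a median of -4.05.

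Part of the order of classes remained within groups of CDS length. These groups are wide, the last running from 3573 to 107973 nt, and 3′ UTR length was not matched. Median 3′ UTRs were 139 nt in the ribosomal proteins and 2079 nt in the SR proteins and hnRNPs. Members can thus still differ in length from the rest of their group. Taken as the difference from the median of their own CDS length group, ribosomal proteins stood 1.10 higher (73 of 77 above), oxidative phosphorylation genes 1.13 (67 of 77 above), TOP mRNAs outside the ribosome 1.13 (11 of 17 above), histones 1.01 and Sm and LSm proteins 0.99. SR proteins and hnRNPs stood at -1.28 (26 of 29 below), chromatin regulators at -1.04 (34 of 38 below) and the cell cycle genes at -0.93. Ubiquitin-specific proteases (0.00) and kinesin and dynein heavy chains (0.07) lay at the median of their groups. The ZNF genes, near the median of all genes in the order, stood 0.53 above theirs (265 above, 165 below). When the trend on transcript length was removed from each library before the fit, the span of the class medians was 4.55 instead of 7.95, and 5 classes whose medians were above that of all genes moved below it. They were the mitochondrially encoded mRNAs, the proteasome subunits, the HOX genes, the CCT subunits and the cyclins, CDKs and CDK inhibitors, of which the last 2 had been within 0.1 of it. In lncRNAs, which have no long CDS, the ratio also fell with length, but less. It was 2.66 under 500 nt and 0.01 at 4000 nt or more, where protein-coding genes of those lengths had 4.64 and -1.90.

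The difference between the lines followed the same axis. From the shortest to the longest CDS length group, the share of genes with a lower ratio in shPRRC2B cells rose from 3.84% to 46.7%, beside 16.4% of all genes, and the share with a higher ratio fell from 26.8% to 2.95%, beside 10.7%. Among the classes, the chromatin regulators (86.8%), the HSP70 and HSP90 chaperones (75%) and the nucleoporins (67.7%) had the largest shares of members that differed between the lines. The mitochondrially encoded mRNAs (7.69%), histones (10%) and ribosomal protein pseudogenes (12.1%) had the smallest. Their median differences were -0.67, -1.12 and 0.17, beside -1.23, -0.93 and -0.84 in the chromatin regulators, chaperones and nucleoporins. A small share called therefore need not mean a small difference. Histones and pseudogenes had median levels of only 0.285 and 0.731 CPM in shPRRC2B total RNA. RANBP2, a nucleoporin of the cytoplasmic filaments, went from 253, 277 and 256 CPM in total RNA to 12.5, 9.84 and 6.85 CPM in polysome RNA in shPRRC2B cells (-4.75), against a ratio of -2.27 in shCtrl cells (edgeR adjusted p of the difference = 1.05e-05).

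Among single genes that averaged 10 CPM or more and showed no overlap between fractions, the highest ratios belonged to short or noncoding transcripts. A gene could reach this mean through polysome RNA alone, and such a gene is bound to look enriched. Which genes stand at this end is therefore partly set by the filter. COX14, an assembly factor of cytochrome c oxidase with a CDS of 171 nt, had 12.7, 12.8 and 10.1 CPM in total RNA and 405, 395 and 516 CPM in polysome RNA (5.21, 36.9-fold higher, edgeR adjusted p = 1.53e-13). C19orf81 had 2.1, 1.68 and 2.62 and 73.3, 72.3 and 103 CPM (5.29). The noncoding RNAs LINC02154, ZNF687-AS1 and IDH1-AS1 had ratios of 5.55, 5.51 and 5.18, each with less than 1 CPM in every total RNA library. HRAS, a small GTPase, had the highest fitted value, 7.00 (standard error 1.10, edgeR adjusted p = 1.35e-05), but from 0.420, 0.0715 and 0.131 CPM in total RNA (9, 2 and 3 counts) and 6.88, 66.8 and 4.57 CPM in polysome RNA. Polysome replicate 2 stood far above the other polysome libraries, and the log2 ratio was 4.77 to 7.92 when single libraries were left out. BOLA2B (5.84), a near-identical copy of BOLA2, and the histone H2BC18 (5.78) complete the 8 highest, and each had 1 polysome library far from its other 2. HRAS, BOLA2B and H2BC18 also averaged under 1 CPM in total RNA. Another 4 pseudogenes or unnamed genes with ratios in this range are not listed.

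The lowest ratios belonged mostly to long mRNAs. Here the mean of 10 CPM could be reached through total RNA alone. HERC2, a ubiquitin ligase with a CDS of 14502 nt, had 44.9, 47.1 and 38.8 CPM in total RNA and 0.172, 0.191 and 0.285 CPM in polysome RNA, which were 2, 2 and 3 counts (-7.62, edgeR adjusted p = 3.39e-12). KMT2D, a histone H3 lysine 4 methyltransferase with a CDS of 16611 nt, had 266, 274 and 264 and 1.98, 4.20 and 0.0951 CPM (-7.00, edgeR adjusted p = 1.22e-11). Its polysome values were unequal among themselves, with replicate 3 the lowest, yet all lay far below total RNA. POLR2A, the largest subunit of RNA polymerase II, had 378, 393 and 401 and 8.08, 6.02 and 3.71 CPM (-6.03), and MKI67, a proliferation marker that coats mitotic chromosomes, 471, 501 and 481 and 7.05, 7.26 and 6.66 CPM (-6.11). FREM2 (-7.46), a matrix protein, UBN2 (-6.05), a histone chaperone subunit, and LINC00342 (-7.83), with 0, 0 and 4 counts in polysome RNA, were the others. Of the 8 lowest, 1 long noncoding RNA is not named here. Genes without any polysome count have no measurable ratio, only a bound. With a floor of 3 counts over the 3 libraries, ZNF132 was at least 22.1-fold lower, SLFNL1-AS1 at least 49.8-fold lower and LINC02035 at least 41.7-fold lower in polysome RNA, and the histone H2AC21, without a count in total RNA, was at least 55.1-fold higher.

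**Figure D5:**
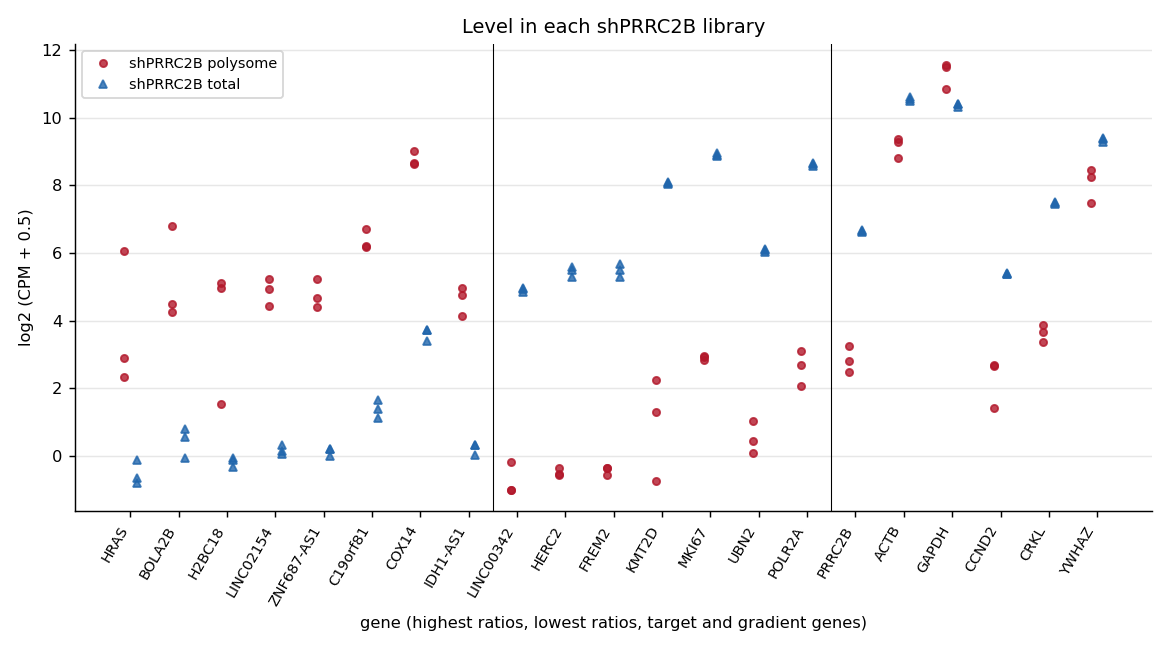
Level as log2(CPM + 0.5) in each of the 3 polysome and 3 total RNA libraries of shPRRC2B cells, 1 point per library, for the genes with the highest and the lowest ratios, for PRRC2B and for the genes followed on gradients. COX14 lies at 10.1 to 12.8 CPM in total RNA and 395 to 516 CPM in polysome RNA, and KMT2D at 264 to 274 and 0.0951 to 4.20 CPM.

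The mRNAs that the study followed along gradients lay at different places in this distribution. ACTB, cytoplasmic actin, had 1443, 1509.6 and 1555 CPM in total RNA and 661, 618 and 446 CPM in polysome RNA (-1.39, edgeR adjusted p = 1.12e-07), and its ratio in shCtrl cells was 0.08. GAPDH had 1350.2, 1360.3 and 1272 and 1845, 3002 and 2877 CPM (0.96, edgeR adjusted p = 0.00239), which missed the minimum ratio of a call. CCND2, a G1 cyclin, had 40.9, 41.9 and 41.4 and 5.93, 5.83 and 2.19 CPM (-3.15), and CRKL, a signalling adaptor, 179.8, 178 and 175 and 12.2, 14.1 and 9.89 CPM (-3.88). YWHAZ, a 14-3-3 protein, had 668, 679 and 625 and 353, 303 and 178 CPM (-1.24, edgeR adjusted p = 3.33e-05). Its ratio was -0.01 with the length trend removed (edgeR adjusted p = 0.977). For ACTB, CCND2, CRKL and YWHAZ all 3 polysome values lay below all total values, and for GAPDH all lay above. With library totals in place of TMM the log2 ratio of GAPDH was 0.0025 (edgeR adjusted p = 0.993), with the length trend removed it turned to -0.99, and without polysome replicate 1 it passed the minimum ratio at 1.07.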

How the data were processed

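RNA was sequenced by the authors as read pairs from poly(A)-enriched libraries of 3 biological replicates per line and fraction. According to the methods and the submitters' processing notes, reads were demultiplexed (bcl2fastq 2.19.0), trimmed (Trimmomatic 0.36), mapped to GRCh38 (HISAT2 2.1.0) and counted on gene names of GENCODE 38 (featureCounts of Subread 2.0.1). The deposited values were raw counts per gene name and library, not normalized. All values were checked to be whole numbers, over 59385 gene names (36618 with a count). The table had 5 empty columns, and 0 columns of values belonged to no sample. Groups came from the sample labels, and the 36 h of Dox from the paper. The members, gene lists and tests were chosen with earlier results of these data known.

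Tests were run in edgeR 4.0.16 under R 4.3.3. TMM factors were taken from all 12 libraries after filterByExpr (minimum count 10), and the 18166 genes kept were fitted by glmQLFit with 4 groups of line and fraction and no block. The contrast of shPRRC2B polysome against total RNA, and its difference from the same contrast in shCtrl cells, were tested by glmQLFTest with Benjamini-Hochberg adjustment over all genes tested. Because the 4 groups share 1 estimate of the spread, shCtrl libraries enter the error of the shPRRC2B ratios. Class medians and length trends were described without a test. Interquartile ranges were compared by exact permutation in Python 3.11.15 with scipy 1.17.1. Lengths and positions were those of canonical transcripts of GENCODE 44 on GRCh38 and known for 15762 genes tested (86.8%), and start windows were read from RefSeq promoters of GRCh38.p14. A TOP-like start was C followed by at least 4 pyrimidines on the transcribed strand at the first start listed for a gene. Where all 3 libraries of a fraction were at 0, a bound was computed from a floor of 3 counts over the fraction, which covers counting error only. No share of a single library is printed, so no binomial interval is given. The edgeR p-values measure the spread between these biological replicates of 1 clone per line. The permutation p-values cover the spread between polysome libraries only.

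Genes were named by a rule: PRRC2B, the 8 highest and 8 lowest called genes that averaged 10 CPM or more with no overlap of the fractions (pseudogenes and genes without a symbol left out), the highest and lowest member of each class, the member with the largest difference between lines in the 3 classes with the highest and the 3 with the lowest share of such genes, and ACTB, GAPDH, CCND2, CRKL and YWHAZ. Other genes were named for their role, after their values were seen. One long noncoding RNA is not reported here.

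Samples of the same replicate number did not deviate together (correlations of deviations 0.01 to 0.06), so the numbers were not used as pairs. Alternatives were DESeq2 1.42.0 (an adjusted p given as NA was kept as NA), RLE size factors, library totals, filters of at least 1 count or of at least 10 counts in every library, limma 3.58.1 on log2(CPM + 1), the shPRRC2B libraries alone, the replicate block, removal of the trend on transcript length (lowess, span 0.3) with and without the block, a minimum ratio of 0.5, and each library left out in turn. Filters on a mean of 10 CPM, and on 1 CPM in total or polysome RNA, were chosen after seeing the data. The fit was tested on simulated counts made from these libraries with 16419 genes tested, 200 of them changed by 1.5 on the log2 scale. It called 174 of these (87%) and 4 unchanged genes in the contrast within shPRRC2B cells, and 147 (73.5%) and 8 in the difference between lines. In the simulation all 4 groups started from the shPRRC2B total RNA levels. The changed genes were above 1 CPM, with as many raised as lowered. In the data most genes were called and the scaling factors differed between fractions. The simulation cannot give the rate of false calls in that setting.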

Additional observations from a re-analysis of the deposited data

Results flagged for a closer look

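These results were singled out because the polysome-to-total ratio of shPRRC2B cells differed from that of shCtrl cells in a test of the difference itself (edgeR, Benjamini-Hochberg adjustment). The ratio was higher in shPRRC2B cells for 1935 genes and lower for 2981. All groups held 3 libraries, which is too few for a test of single outlying samples.

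Among the named genes with low ratios, the log2 difference between the lines was -4.53 for FREM2 (adjusted p = 2.48e-06, edgeR), -2.85 for MKI67 (4.17e-07), -2.82 for UBN2 (2.32e-05), -2.29 for POLR2A (3.77e-05), -2.14 for HERC2 (0.0326) and -1.75 for KMT2D (0.0194). In these 6 genes the depletion from polysomes was stronger in shPRRC2B cells. They were chosen for a low shPRRC2B ratio, which is also a term of the difference, so a negative difference was favoured. All 6 have a CDS of 3573 nt or more, a group in which 46.7% of genes had a lower ratio than in shCtrl cells. FREM2 and HERC2 had at most 3 counts in any shPRRC2B polysome library, so the size of their differences is set by few counts.

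Among those with high ratios it was 5.43 for BOLA2B (adjusted p = 0.0104, edgeR), 2.17 for C19orf81 (9.85e-05), 1.37 for IDH1-AS1 (0.0141) and 1.00 for COX14 (0.00529). These genes were chosen for a high shPRRC2B ratio, so a positive difference was favoured in the same way. BOLA2B shares reads with its copy BOLA2, and its shPRRC2B polysome values were 21.9, 18.7 and 109.8 CPM.

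In the classes with the largest shares of differing members, the difference was -2.48 for RANBP2 (adjusted p = 1.05e-05, edgeR), -2.30 for CREBBP (2.39e-05) and -1.51 for HSP90B1 (3.21e-05). In those with the smallest shares it was -3.92 for the histone H2AC16 (0.00508), 2.21 for the pseudogene RPL12P14 (0.0043) and -1.41 for MT-ND5 (0.0498). MT-ND5 was close to the threshold, and its shPRRC2B polysome values of 1442, 461 and 405 CPM were led by replicate 1.

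Of the mRNAs followed on gradients, ACTB had a difference of -1.46 (adjusted p = 0.000112, edgeR), CCND2 of -1.97 (0.000478), CRKL of -1.65 (3.61e-05) and YWHAZ of -0.91 (0.0285). The ratio of ACTB in shCtrl cells was 0.08. The paper classed ACTB as a bound mRNA with unchanged translation efficiency, its own ratio of polysome to total RNA.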

How the results depend on the processing

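Between 5559 and 5771 genes were enriched and between 6709 and 7005 depleted when each shPRRC2B library was left out, and the interquartile range was 2.63 to 2.73 and its difference between lines 0.44 to 0.54 when each of the 12 was. The span of class medians was 7.76 to 8.2. Genes with a higher ratio than in shCtrl cells numbered 1285 to 2532 (1285 without shCtrl total replicate 2) and with a lower ratio 2333 to 3716. Library totals gave 3551 enriched genes, a mean of at least 10 CPM gave 3184 enriched and 3869 depleted, and at least 10 counts in every library gave 4267 depleted, the last 2 with fewer genes tested. The interquartile range was 0.893 with every gene of at least 1 count, 3.06 with at least 10 counts in every library and 2.08 with the length trend removed, and its difference between the lines 0.17, 0.67 and 0.38. The span was 4.55 with the length trend removed and 4.56 with the replicate block as well.

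With the length trend removed, or with it and the replicate block, class medians less that of all genes changed sign for mitochondrially encoded mRNAs (-1.11 and -1.28), proteasome subunits (-0.33 and -0.32), HOX genes (-0.51 and -0.49), CCT subunits (-0.77 and -0.77), cyclins, CDKs and CDK inhibitors (-0.97 and -0.96), ZNF genes (0.29 and 0.29, and 0.024 for genes with at least 1 CPM in total RNA) and nuclear-retained lncRNAs (0.17 and 0.061). So did the ratios of MT-CO3 (-1.04 and -1.12), TPI1 (-0.78 and -0.79), SARS1 (-0.73 and -0.75, and -0.48 with library totals), SEC13 (-0.73 and -0.73), CHD9 (0.29 and 0.29) and GAPDH (-0.99 and -1.01). The ratio of YWHAZ was -0.01 with the length trend removed, and EEF1B2, GSPT1, MRPL30, PPP1R15B and SRSF9 lost their calls too, while RPL36A, CCT2, SF3A2 and H2BC6 became depleted. The difference between lines for PRRC2B was -0.15 to 0.30 when each library was left out, -0.06 without shCtrl polysome replicate 1 and -0.15 without shPRRC2B polysome replicate 1, and it passed the threshold with the length trend removed (0.85, edgeR adjusted p = 0.0186). That for MT-ND5 lost its call in 14 of the fits run. The causes of these shifts were not tested. The replicate block gave 5530 enriched and 6520 depleted genes, and 1656 and 2666 that differed between lines, and changed no other call of a count or span.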

Other observations

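Annotated snoRNAs, which are mostly cut from introns and carry no poly(A) tail, had the lowest median of the biotypes, a value that turned with the choice of genes. Of 23 that passed the filter, 16 were depleted and 3 enriched, with a median log2 ratio of -4.29 in shPRRC2B and -3.34 in shCtrl cells, from few counts. It was -2.04 for the 5 with at least 1 CPM in total RNA and 1.62 for the 5 with at least 1 CPM in polysome RNA. Processed pseudogenes (444 tested) had a median of 1.16 and 221 enriched, and 0.70 for the 203 with at least 1 CPM in total RNA.

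GC content went with the ratio in shPRRC2B cells and with the share of genes that differed between the lines. From the lowest to the highest of 10 equal groups by GC content of the transcript, the median ratio in shPRRC2B cells went from -0.59 to 0.34 and in shCtrl cells from -0.14 to 0.03. The share enriched in shPRRC2B cells went from 23.3% to 37.7% and that depleted from 40.7% to 27.1%, beside 31.6% and 36.7% of all genes. The share of genes with a lower ratio than in shCtrl cells went from 32.6% to 5.80%, and that with a higher ratio from 4.41% to 18%, beside 16.4% and 10.7% of all genes. With the length trend removed, the median ratio in shPRRC2B cells went from 0.24 to -0.14, the opposite direction. The part of length in the difference between lines along GC content was not tested.

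The level in total RNA also ordered the ratio. Protein-coding genes in the lowest of 10 equal groups by shPRRC2B total RNA level had a median ratio of 0.68 and those in the highest -1.57. The same total RNA values enter both quantities, so the 2 are not independent.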
